A study of Oncorhynchus mykiss with 43 samples.

Results

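Muscle of rainbow trout refed for 4 days was compared with muscle of trout that were still fasted. The comparison rested on 17 of the 43 fish of the study, 8 fasted and 9 refed for 4 days, chosen by the titles of the samples. All were rainbow trout (Oncorhynchus mykiss) of a spring strain, aged 1 year, and all had been deprived of food for 1 month. The fasted group was sampled at the end of this month. The refed group received, for 4 days after it, a ration well above the normal one. Fish that had never been fasted were not analysed here, so each level after refeeding is set against the fasted state alone. RNA came from a slice of fast muscle under the dorsal fin, and each fish had an array of its own. Each group was sampled at its own water temperature, so feeding and temperature cannot be told apart. In such bulk RNA, fewer cells of a type and less RNA per cell cannot be told apart either.

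An animal that eats again after a fast can regain muscle faster than it would grow otherwise, which is called recovery growth. In fasting muscle, proteins are tagged with ubiquitin by chains of activating, conjugating and ligating enzymes and are then degraded by the proteasome, while lysosomal cathepsins digest others. Muscle that rebuilds its mass needs new ribosomes, spliced and exported mRNA, initiation and elongation factors, tRNA synthetases and chaperones that fold the new proteins. The named clones are described by these roles.

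The array carried 9023 trout cDNA clones, and a clone's value is its normalized intensity, a linear scale without a unit on which values of one clone can be compared between fish. Levels of different clones are not comparable, because they also depend on the spotted cDNA. Fasted fish had a value for 1630 to 2587 clones (median 2175) and fish refed for 4 days for 1566 to 2497 (median 2372), so the numbers overlapped. A value was present in all 17 fish for 929 clones, in 9 to 16 fish for 1158, in 1 to 8 fish for 1902 and in none for 5034. A clone was tested when it had a value in at least 5 fish of each group, which held for 1796 clones. Over the 929 clones, pairs of fish correlated at a median r of 0.94 among fasted fish, 0.95 among refed fish and 0.93 between the groups.

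The table of values names no gene, and protein names were available for 290 clones, 108 of which could be tested. These clones were drawn by the study for their differences among these very fish, and their counts therefore give no independent evidence of a direction. A cDNA clone can also bind transcripts of near-identical gene copies, of which trout have many, so a name stands for a gene and its close copies. Clones of skeletal muscle proteins were present, in a list that does not tell fast from slow fibres. All 6 clones of this list had a value in some fish. Their summed level was 31.8 to 45.2 in fasted and 44.2 to 52.6 in refed fish. A sum is led by its brightest spots, and of its 5 tested clones only alpha skeletal actin passed an adjusted p of 0.05. Of 4 clones of heart or slow muscle 3 had a value, with sums of 7.06 to 21.5 and 7.75 to 32.8, and the clone of the cardiac beta myosin heavy chain had none. In all these sums a missing value counted as 0. Cardiac actin had a value in 7 fasted and 7 refed fish, at least 6.47 and 11.5, so the lowest sums of its list are from fish without it. In the skeletal muscle list, tropomyosin 1 alpha had a value in 2 fasted and 7 refed fish. The 3 clones listed for white blood cells (Spi-1/PU.1, cathepsin S and proteasome subunit beta type 9) had no value in any of the 17 fish. This was so for 73 of the 290 named clones, so it cannot show that such cells were absent. Apolipoprotein B-100, of liver, had one in 2 fasted and 4 refed fish, and histone H5A, of nucleated erythrocytes, ranged from 1.47 to 2.37 in fasted and from 1.19 to 2.23 in refed fish. The part of these markers in the results was not tested.

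After 4 days of refeeding, 39 clones were higher and 13 were lower than in fasted muscle, with counts of 22 and 11 without fasted fish 7 and 24 and 11 without fasted fish 8. The largest rise of all clones tested was that of heat shock protein HSP 90-alpha and the largest fall that of the homolog of Ariadne-2, which attaches ubiquitin to proteins. The median rise was 1.68-fold and the median fall 1.82-fold. Calls were made on log2 values at a Benjamini-Hochberg adjusted p under 0.0001, with limma fitted to all 43 arrays. At this threshold 2.17% of all clones tested were called higher and 0.724% lower, and at an adjusted p under 0.05 6.85% were higher and 4.34% lower (123 and 78 clones). The median log2 change over all clones tested was -0.03, with 784 clones above 0 and 1012 below. The groups did not overlap in 77 clones (4.29% of those tested). In 52 of them every refed fish lay above every fasted fish (2.9%) and in 25 every refed fish lay below (1.39%). The number of calls depended on the method: SAM with a 0.01% false discovery rate called 64 and 18 clones, and limma after quantile normalization 13 and 5.

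**Figure D1:**
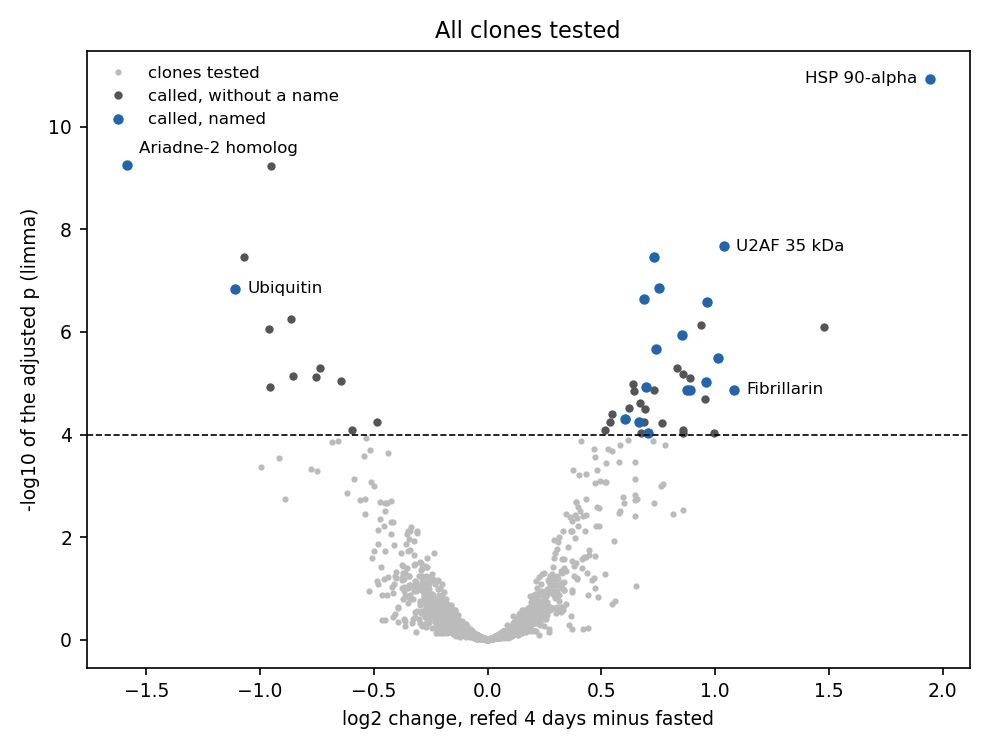
Log2 change between fish refed for 4 days and fasted fish (x axis) against -log10 of the limma adjusted p (y axis) for the 1796 clones tested, with the threshold of 0.0001 as a dashed line. The 39 clones called higher lie on the right and the 13 called lower on the left, with HSP 90-alpha at a log2 change of 1.94 and the Ariadne-2 homolog at -1.59 farthest out.

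The falls after 4 days included transcripts of protein degradation, and none of those named was called higher. Over all clones tested 0.724% were called lower and 4.34% were lower at an adjusted p under 0.05. Of the 43 named clones of this group 21 were tested, and 2 of them were called lower, 7 were lower at an adjusted p under 0.05 and 14 passed neither threshold. The 7 became 4 without fasted fish 3 or 7 or refed fish 8 or 10. The median log2 change was -0.18, and 19 of the 21 values were below 0. The Ariadne-2 protein homolog, of the RING-between-RING ubiquitin ligases, ranged from 3.59 to 7.51 in the 8 fasted fish (median 5.04) and from 1.33 to 2.29 in the 7 refed fish with a value (median 1.81). All 7 refed fish lay below all fasted fish. The level fell 3.00-fold, a log2 change of -1.59 ± 0.15 (SE, adjusted p = 5.66e-10). Ubiquitin itself, the small protein that marks others for the proteasome, ranged from 13.8 to 24.7 (median 16.5) in fasted and from 5.52 to 10.3 (median 8.25) in refed fish, again without overlap. It was 2.16-fold lower, a log2 change of -1.11 ± 0.14 (SE, adjusted p = 1.43e-07). Ubiquitin is encoded by several genes with near-identical repeats, which this clone would not separate.

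The proteasome clones moved less than these. Of 10 tested clones of the proteasome and its activators and assembly factors, 8 were below 0, 2 were lower at an adjusted p under 0.05 and 0 at 0.0001, with log2 changes from -0.37 to 0.11. The share lower under 0.05 over all clones tested was 4.34%. Without fasted fish 3, 7 or 8 or refed fish 2, 8 or 10 the count of proteasome clones under 0.05 was 0. The 2 were non-ATPase regulatory subunits 12 and 7, parts of the lid of the 26S proteasome (log2 changes -0.37 and -0.36, adjusted p = 0.036 and 0.049). The other clones under 0.05, singled out after their values were seen, were the ubiquitin-conjugating enzyme E2-25 kDa (-0.31, adjusted p = 0.0077), ubiquitin carboxyl-terminal hydrolase 13, which removes ubiquitin (-0.29, adjusted p = 0.032), and an alpha-mannosidase-like protein of the degradation pathway of the endoplasmic reticulum (-0.48, adjusted p = 0.013). Of these 5 only E2-25 kDa did not overlap between the groups, with 1.98 to 2.48 in 7 fasted and 1.6 to 1.91 in 7 refed fish. Non-ATPase regulatory subunit 13 had the highest change of the group, 0.11 ± 0.18 (adjusted p = 0.79), with a value of 2.43 in refed fish 2 against 1.29 or less in the other 7 refed fish that had one. Cathepsin D, a lysosomal aspartic protease, ranged from 3.05 to 4.98 (median 3.82) in fasted and from 2.12 to 3.84 (median 2.91) in refed fish. Its change of -0.38 (95% interval -0.65 to -0.11) did not pass (adjusted p = 0.060). Cathepsin B, a lysosomal cysteine protease, had a value in all 8 fasted fish, from 3.16 to 5.98, but in only 3 refed fish, from 1.96 to 2.45, and was therefore not tested for its level. The proteasome-associated protein ECM29 had a value in 7 fasted fish, from 1.02 to 2.62, and in 1 refed fish, at 1.03. For cathepsin B and ECM29 the presence of a value did not differ past 0.05 by Fisher's exact test (adjusted p = 0.67 and 0.57).

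Chaperones were the group with the largest number of calls. Of 12 tested clones 6 were called higher, 10 were higher at an adjusted p under 0.05 and 0 were lower. Their median log2 change was 0.66. The shares over all clones tested were 2.17% called higher and 6.85% higher under 0.05. HSP 90-alpha, which folds kinases, receptors and, in muscle, myosin, ranged from 4.24 to 6.64 (median 5.35) in the 6 fasted fish with a value and from 19.2 to 22.8 (median 20.0) in 8 refed fish. The lowest refed fish was thus far above the highest fasted fish. The level was 3.84-fold higher (log2 change 1.94 ± 0.16, adjusted p = 1.16e-11). Peptidyl-prolyl cis-trans isomerase B, a folding enzyme of the endoplasmic reticulum, ranged from 0.603 to 1.31 (median 0.750) in 7 fasted and from 1.17 to 1.85 (median 1.57) in 9 refed fish. The groups overlapped by 1 refed fish, number 7, and the change was 1.01 ± 0.15 (adjusted p = 3.24e-06). The mitochondrial 10 kDa heat shock protein, the lid of the chaperonin of the mitochondrion, rose from 0.405 to 0.650 in 5 fasted fish to 0.786 to 1.14 in 9 refed fish, without overlap (0.96 ± 0.15, adjusted p = 9.64e-06). With any of these 5 fasted fish left out it was not tested.

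The cytosolic chaperonin, a ring of TCP-1 subunits that folds actin and tubulin, was represented by 6 tested clones of 5 subunits. Of these clones 3 were called higher, 5 were higher at an adjusted p under 0.05, and the changes ran from 0.10 to 0.86. Over all clones tested 2.17% were called higher and 6.85% were higher under 0.05. The alpha subunit ranged from 2.15 to 3.92 (median 2.46) in fasted and from 4.35 to 6.15 (median 4.84) in refed fish (0.86 ± 0.12, adjusted p = 1.14e-06). The beta subunit ranged from 1.62 to 2.08 and from 2.4 to 3.47 (0.70 ± 0.11, adjusted p = 1.19e-05). Neither subunit overlapped between the groups. The theta subunit was on the array with 2 tested clones, which gave changes of 0.70 ± 0.13 (adjusted p = 9.40e-05) and 0.36 ± 0.09 (adjusted p = 0.0040). The call of the first was lost when any of 15 of the 17 fish was left out (adjusted p up to 3.76e-04). The zeta subunit, at 0.10 ± 0.09 (adjusted p = 0.56), was the smallest change of the group. A heat shock protein of the 70 kDa family named ssa1 after its yeast relative did not overlap between the groups but missed the call (0.62 ± 0.11, adjusted p = 1.28e-04).

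Ribosome biogenesis was represented by 16 named clones, of which only 2 could be tested. Both were called higher, against 2.17% of all clones tested. Fibrillarin, the methyltransferase of the box C/D ribonucleoproteins that modify ribosomal RNA, ranged from 0.883 to 1.34 (median 1.16) in the 5 fasted fish with a value and from 1.87 to 3.13 (median 2.30) in 9 refed fish. All refed fish lay above all fasted fish, and the level was 2.12-fold higher (log2 change 1.08 ± 0.17, adjusted p = 1.34e-05). With any of its 5 fasted fish left out, fibrillarin fell under the minimum of fish and was not tested. The nucleolar protein NOP5, a core protein of the same particles, ranged from 1.66 to 2.54 (median 2.05) in 8 fasted and from 2.21 to 5.48 (median 3.82) in 9 refed fish. Of the 9 refed fish 8 lay above all fasted fish. The change was 0.89 ± 0.15 (adjusted p = 1.37e-05), and NOP5 was not called when only the 17 arrays were fitted. Brix domain containing protein 1, needed for the large ribosomal subunit in yeast, had a value in 3 fasted fish (0.531 to 0.744) and in all 9 refed fish (1.04 to 1.79). Of the ribosomal proteins only 1 of 11 clones was tested, 40S ribosomal protein S19, with a change of 0.16 ± 0.10 (adjusted p = 0.33).

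Of the 42 named clones of RNA processing 10 were tested, and all 10 were higher at an adjusted p under 0.05. Their median log2 change was 0.46, and 3 of them were called. Without refed fish 2, 3, 4, 5, 6, 7, 8 or 10 the count under 0.05 was 9 of 10. Over all clones tested 6.85% were higher under 0.05 and 2.17% were called higher. The small subunit of the splicing factor U2AF, which recognises the end of the intron, ranged from 0.739 to 1.13 (median 0.926) in 7 fasted and from 1.31 to 2.33 (median 1.97) in 9 refed fish. The groups did not overlap, and the level was 2.05-fold higher (1.04 ± 0.12, adjusted p = 2.13e-08). Fragile X mental retardation syndrome-related protein 2, an RNA-binding protein of translating ribosomes, ranged from 2.64 to 4.14 (median 3.64) in fasted and from 5.06 to 8.36 (median 7.22) in refed fish (0.96 ± 0.13, adjusted p = 2.59e-07). Splicing factor 3A subunit 2, of the U2 ribonucleoprotein, ranged from 2.02 to 2.86 (median 2.05) and from 2.88 to 4.13 (median 3.53; 0.69 ± 0.09, adjusted p = 2.31e-07). These 2 did not overlap either. The smallest change was that of heterogeneous nuclear ribonucleoprotein I, a repressor of splicing, at 0.35 ± 0.12 (adjusted p = 0.047). Its adjusted p reached 0.078 with a fish left out, and it was not tested without any of its 5 fasted fish.

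Translation factors rose in 8 of 11 tested clones at an adjusted p under 0.05, with a median log2 change of 0.39, and 3 of the 8 were called. The 8 became 6 without fasted fish 2 or 4 or refed fish 7 or 10. The shares over all clones tested were 6.85% higher under 0.05 and 2.17% called higher. Initiation factor 5 (eIF5), which makes eIF2 hydrolyse its GTP at the start codon, had 2 clones. One ranged from 2.01 to 2.89 in 7 fasted and from 3.02 to 4.51 in 9 refed fish (0.75 ± 0.09, adjusted p = 1.36e-07), and the other from 1.28 to 1.93 and from 2.27 to 2.86 (0.73 ± 0.09, adjusted p = 3.47e-08). Both clones thus separated the groups fully and gave nearly the same change. Subunit 1 of eIF2, which carries the initiator tRNA, ranged from 1.11 to 1.52 in 7 fasted and from 1.66 to 2.33 in 9 refed fish (0.67 ± 0.12, adjusted p = 5.67e-05). It lost its call when any of 11 fish was left out (adjusted p up to 2.65e-04). The smallest change was that of the beta chain of phenylalanyl-tRNA synthetase, 0.19 ± 0.10 (adjusted p = 0.26).

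**Figure D2:**
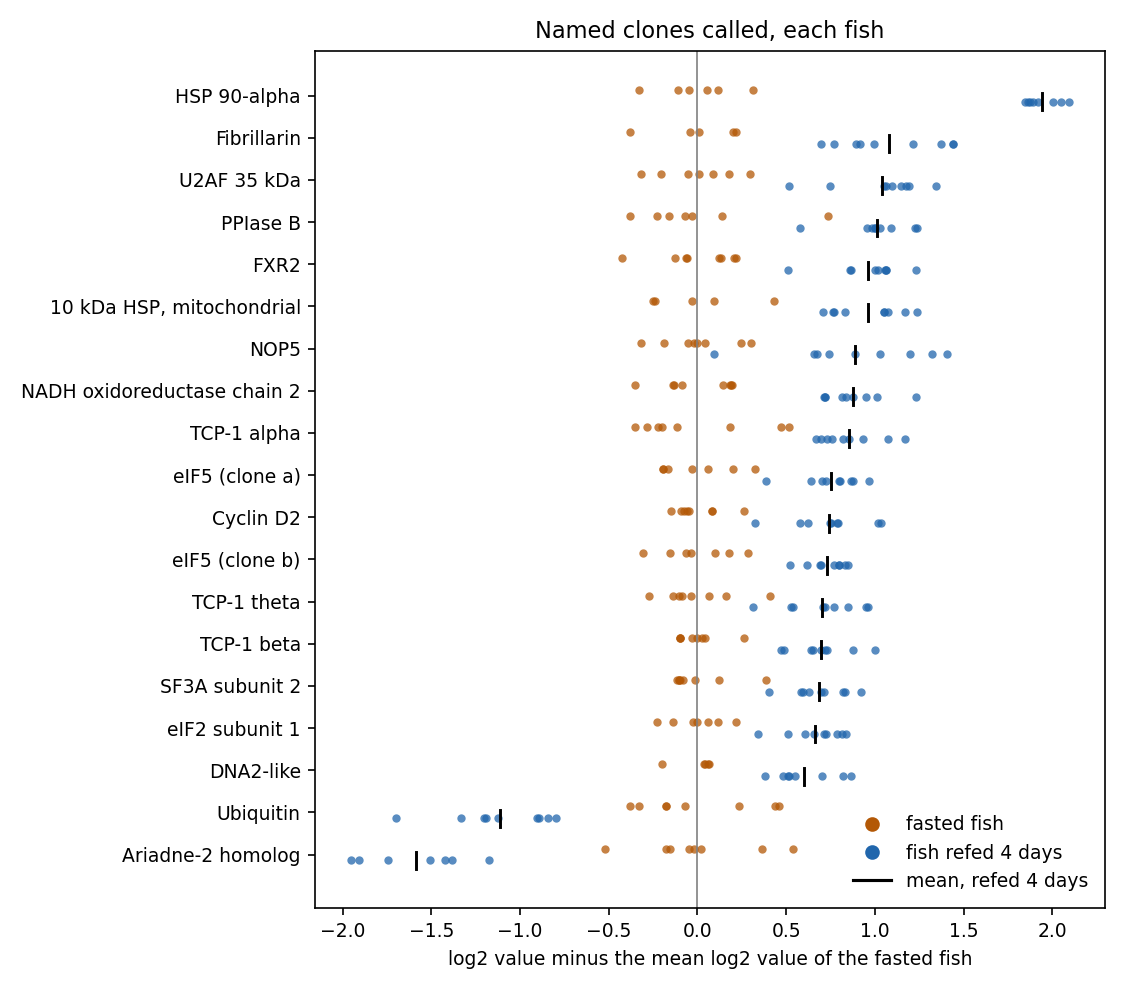
Log2 value of each fish minus the mean log2 value of the fasted fish (x axis) for the 19 named clones called, with fasted fish in orange, fish refed for 4 days in blue and the mean of the refed fish as a black bar (eIF5 clone a is tcay0029.g.08, clone b tcay0002.a.04). Every refed fish with a value lies above 0 for the 17 clones called higher and below 0 for ubiquitin and the Ariadne-2 homolog.

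Among mitochondrial clones all 14 tested had a change above 0, of which 1 was called and 5 were higher at an adjusted p under 0.05 (median log2 change 0.30). Over all clones tested 2.17% were called higher and 6.85% were higher under 0.05, so 1 call in so few clones is near the background. The called one was chain 2 of NADH-ubiquinone oxidoreductase, a subunit of complex I encoded by the mitochondrial genome. It ranged from 2.87 to 4.21 (median 3.76) in fasted and from 6.03 to 8.63 (median 6.57) in refed fish, without overlap (0.88 ± 0.14, adjusted p = 1.37e-05). Chains 1 and 4 of the same complex, also mitochondrially encoded, changed by 0.65 ± 0.14 and 0.48 ± 0.12 (adjusted p = 7.47e-04 and 0.0060). The voltage-dependent anion channel 3 of the outer membrane changed by 0.58 ± 0.11 (adjusted p = 1.60e-04). Cytochrome c oxidase subunit 3, mitochondrially encoded as well, had the smallest change, 0.14 ± 0.11 (adjusted p = 0.52, 95% interval -0.09 to 0.37).

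Of the 6 tested clones of cell division and chromatin 2 were called higher, against 2.17% of all clones tested. Cyclin D2, which drives entry into the cell cycle with its kinase partners, ranged from 3.69 to 4.91 (median 3.95) in fasted and from 5.14 to 8.40 (median 6.90) in refed fish, without overlap (0.74 ± 0.11, adjusted p = 2.10e-06). A homolog of the helicase and nuclease DNA2 ranged from 1.17 to 1.41 in 5 fasted and from 1.75 to 2.45 in 8 refed fish (0.60 ± 0.10, adjusted p = 5.00e-05). Its call was lost without refed fish 3, 9 or 10 (adjusted p up to 1.59e-04) and when only the 17 arrays were fitted, and it was not tested without any of its 5 fasted fish. Histone H5A had the lowest change, -0.25 ± 0.13 (adjusted p = 0.26).

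Of 18 tested sarcomeric and cytoskeletal clones none was called and 2 were higher at an adjusted p under 0.05. The shares over all clones tested were 2.17% called higher and 6.85% higher under 0.05, so these counts are near the background. The median log2 change was 0.13. A change above 0 was found in 17 of the 18, against 784 of all 1796 clones tested. Without fasted fish 10 alpha skeletal actin was called and 5 clones passed 0.05, and without fasted fish 4 or refed fish 3 4 passed 0.05. The largest change was that of alpha skeletal actin, the actin of the thin filament, which ranged from 6.85 to 13 (median 9.11) in fasted and from 13.3 to 17.1 (median 16.1) in refed fish. The groups did not overlap, but the adjusted p of 1.60e-04 missed the threshold (0.78 ± 0.14). The 2 clones of skeletal troponin C, the calcium sensor of the same filament, changed by 0.10 ± 0.11 and -0.04 ± 0.11 (adjusted p = 0.66 and 0.87), and nebulin, which spans the thin filament, by 0.01 ± 0.12 (adjusted p = 0.95). The intervals of these 3 reached from -0.27 to 0.31 on the log2 scale. Larger changes that did not pass 0.05 were those of cardiac actin (0.52 ± 0.17, adjusted p = 0.052), cardiac troponin T (0.49 ± 0.22, adjusted p = 0.15) and cardiac myosin light chain 1 (0.37 ± 0.15, adjusted p = 0.12). Of myosin light polypeptide 6, a light chain of non-muscle and smooth muscle myosin, 1 of 2 clones passed an adjusted p of 0.05 (0.43 ± 0.09, adjusted p = 5.79e-04) and the other did not (0.28 ± 0.12, adjusted p = 0.12).

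Transcription regulators and proteins of the reticulum and Golgi gave no call and nothing at an adjusted p under 0.05, in 8 and 5 tested clones. With 2.9% of all clones called and 11.2% under 0.05, a count of 0 in so few clones is near the background. Their median log2 changes were 0.20 and 0.06. The extremes were high mobility group protein T, a chromatin protein (0.32 ± 0.16, adjusted p = 0.23), the muscle histone methyltransferase smyd1 (-0.09 ± 0.12, adjusted p = 0.74), a galactosyltransferase of the Golgi (0.12 ± 0.14, adjusted p = 0.69) and subunit 6B of the trafficking protein particle complex (-0.12 ± 0.15, adjusted p = 0.71). Myocyte-specific enhancer factor 2A, a regulator of muscle genes, ranged from 0.841 to 1.17 in 7 fasted and from 0.882 to 1.37 in 7 refed fish (0.20 ± 0.10, adjusted p = 0.20).

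**Figure D3:**
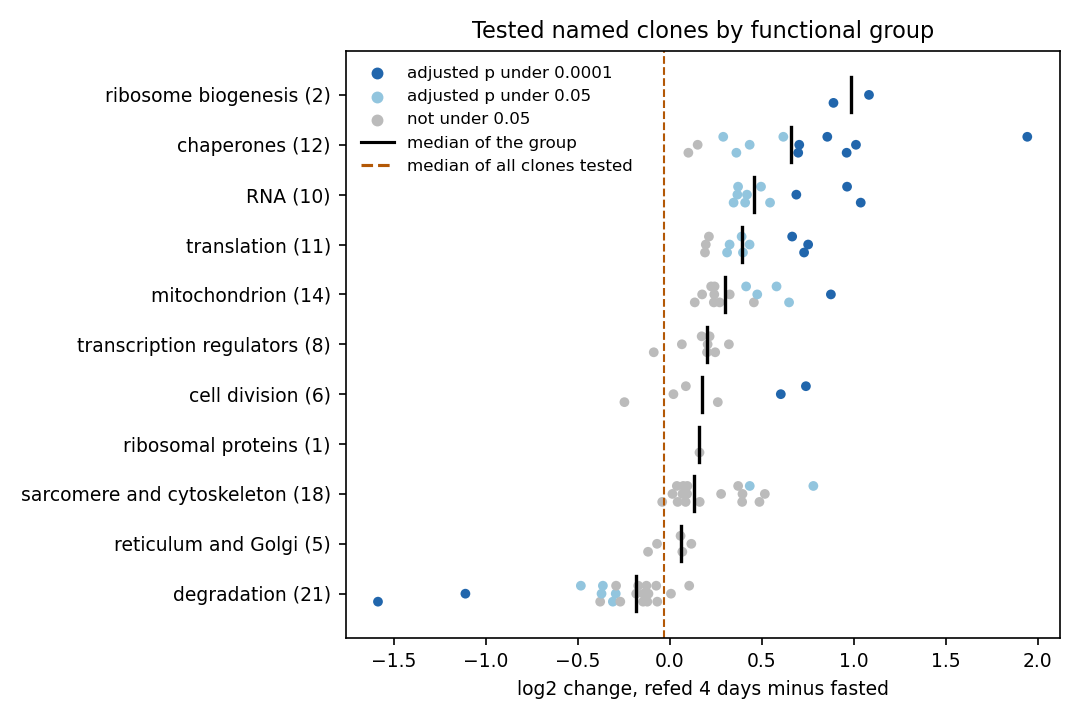
Log2 change between fish refed for 4 days and fasted fish (x axis) for the tested named clones of each functional group, with their number in brackets, coloured by the limma adjusted p. Black bars mark group medians, from -0.18 for degradation to 0.66 for chaperones and 0.99 for the 2 clones of ribosome biogenesis, and the dashed line the median of all clones tested, -0.03.

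Most of the called clones carry no protein name, and neither do 1688 of the 1796 clones tested. Of the 39 called higher 22 were without a name, with log2 changes from 0.52 to 1.48, and of the 13 called lower 11, from -0.49 to -1.07. The largest rise among them was that of 1RT83J04_D_E02, which ranged from 2.15 to 4.38 (median 2.53) in 5 fasted and from 6.43 to 10.3 (median 7.09) in 9 refed fish (1.48 ± 0.20, adjusted p = 7.84e-07). With any of its 5 fasted fish left out this clone was not tested. The next was tcay0027.n.15, where fasted fish 6 at 5.22 lay among the refed fish (3.35 to 8.61) and the other fasted fish reached 2.94 at most (1.00 ± 0.19, adjusted p = 9.35e-05). Its call was lost when any of 13 fish was left out (adjusted p up to 4.03e-04). The largest falls were those of 1RT117J08_D_E04, from 4.07 to 7.64 in fasted to 2.11 to 3.04 in refed fish (-1.07 ± 0.13, adjusted p = 3.47e-08), and of 1RT139I10_C_E05, from 4.03 to 6.46 to 2.28 to 3.75 (-0.96 ± 0.14, adjusted p = 8.69e-07). Neither overlapped between the groups.

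Each refed fish showed the calls. As the calls were made on these fish, the values that follow describe them and test nothing. Over the 39 clones called higher, the median log2 distance of a fish from the fasted mean was 0.58 in refed fish 7, the lowest, and 0.89 in refed fish 3, the highest, and it lay between -0.11 and 0.07 in the fasted fish. Over the 13 called lower it was -0.73 in refed fish 4 and -0.99 in refed fish 6 at the extremes, and -0.17 to 0.31 in the fasted fish. In all 9 refed fish every called clone with a value lay on the side of its call. Over all clones tested the same medians were -0.10 to 0.04 in refed and -0.09 to 0.16 in fasted fish.

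Whether a clone had a value at all was a further readout, in which no clone passed the test. A missing value need not mean a missing transcript. Spots with a low signal of the vector oligonucleotide, which measures the spotted cDNA, were excluded by the authors, and cells listed at 0 were counted as missing. Clones with fewer values also had lower ones, but levels of different clones depend on the spotted cDNA too, so this cannot say why values are missing. The median level was 4.27 for clones with a value in all 17 fish, 1.70 for 9 to 16 fish and 1.10 for 1 to 8. Whether the fish with a value for such a clone were the brighter ones was not tested. Of the 3060 clones with a value in some but not all of the 17 fish, 0 (0%) differed at an adjusted p under 0.05 by Fisher's exact test (two-sided, Benjamini-Hochberg), and an unadjusted p under 0.05 was reached by 92 with values in more refed fish and by 51 with values in more fasted fish. With 8 and 9 fish the smallest p this test can give is 4.11e-05. Adjusted over 3060 clones, 1 clone split fully between the groups would not pass 0.05. The count of 0 therefore cannot show that presence was alike in the groups. The lowest adjusted p was 0.31. It was shared by proliferation-associated protein 2G4, a nucleolar protein with a value in 8 refed fish (2.15 to 3.15) and no fasted fish. The unnamed clone tcba0030.d.16 had values in the same numbers of fish. The unnamed clones 1RT99L19_B_F10 and tcay0002.o.20, with the same adjusted p, went the other way. Each had a value in 8 fasted fish and 1 refed fish. Initiation factor 4E, which binds the cap of the mRNA, arginyl-tRNA synthetase and mitochondrial elongation factor Ts had a value in 7 refed fish and no fasted fish each (adjusted p = 0.46). Density-regulated protein, a factor of translation reinitiation, had a value in 3 fasted (0.548 to 0.614) and all 9 refed fish (0.916 to 1.31). The apoptosis-antagonizing transcription factor, a nucleolar protein, had one in 4 fasted (0.602 to 0.646) and 8 refed fish (0.781 to 1.13). FK506-binding protein 2, a folding enzyme, had a value in 4 refed fish and heterogeneous nuclear ribonucleoprotein H in 3, and both had none in fasted fish.

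The share of cells with a value was larger in refed fish for 10 of the 11 named groups. It was 29.5% in fasted and 52.1% in refed fish for RNA processing, 23.4% and 45.8% for ribosome biogenesis, 43% and 65.8% for translation and 52.1% and 71.3% for chaperones. For degradation it went the other way, 53.2% and 47.3%. Over all clones it was 24% and 24.5%. Of the translation clones with a value in some but not all fish 20 of 20 had it in a larger share of the refed fish, of the RNA clones 25 of 26, and of the degradation clones 7 of 23, against 51.3% of the 3060 clones of this kind. The exception among 13 ribosome biogenesis clones was Brix domain containing protein 2, with a value in 6 fasted fish and 1 refed fish. These shares were not tested, for the reason given with the names.

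**Figure D4:**
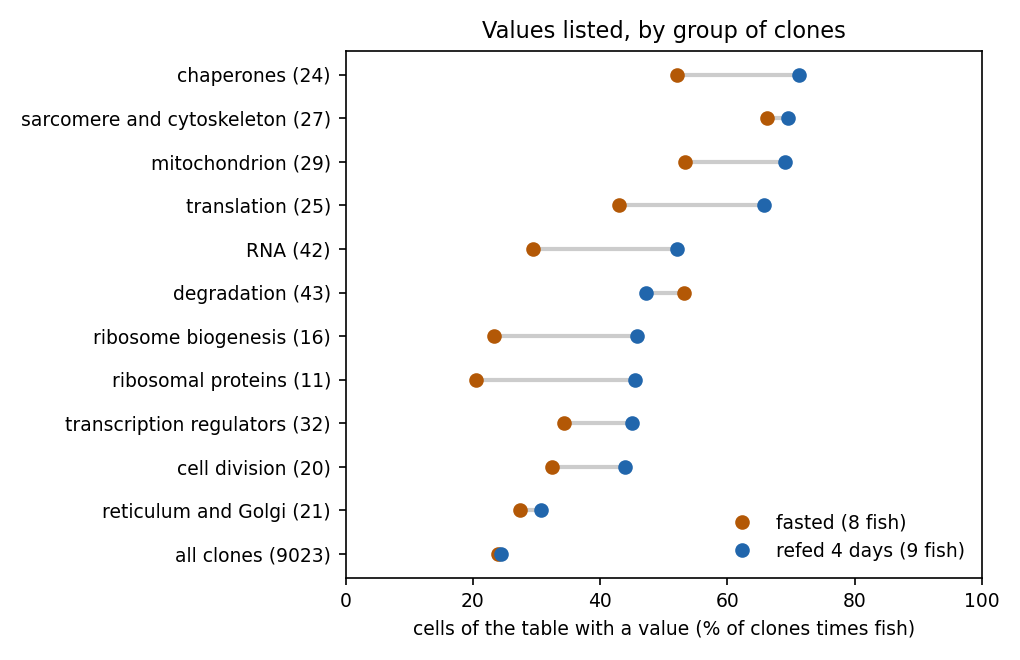
Percent of the cells (clones times fish) with a value in fasted fish (orange) and in fish refed for 4 days (blue) for each named group, with its number of clones in brackets, and for all 9023 clones. The refed share is larger in every named group but degradation, while all clones together stand at 24% and 24.5%.

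The levels at 4 days were set beside those of fish at 7, 11 and 36 days of refeeding, in the same fit. The same 9 fish that gave the calls at 4 days enter these contrasts, so a clone that was high in them by sampling would tend to be lower later. Against 4 days, 0 of the 19 named clones called differed at 7 or 11 days at an adjusted p under 0.0001, and 5 of the 18 tested were lower at 36 days, where 2.14% of all 1778 clones tested were lower and 1.8% higher. At an adjusted p under 0.05, 1 was lower at 7 days, 3 were lower and 1 higher at 11 days, and 11 were lower at 36 days. Over all clones tested 0.258% were lower and 0.412% higher at 7 days. The shares lower and higher were 1.34% and 4.62% after 11 days. After 36 days they were 18.5% and 19.2%.

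NOP5 had its highest mean at 4 days, 3.96 ± 1.04 (SD, n = 9), against 2.09 in fasted fish, 2.63 at 7, 2.59 at 11 and 1.78 at 36 days. It was lower at 7 days by 0.58 on the log2 scale (adjusted p = 0.040), at 11 days by 0.58 (adjusted p = 0.0081) and at 36 days by 1.13 (adjusted p = 3.16e-07). Fibrillarin was highest at 4 days as well, 2.48 ± 0.50 (SD, n = 9), and lower at 11 and 36 days (log2 difference -0.54, adjusted p = 0.026, and -0.92, adjusted p = 2.45e-05).

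Of the called chaperones, differences from 4 days past 0.05 were found for 3 of 6 clones. At 36 days 18.5% of all clones tested were lower and 19.2% higher at this threshold, so this count cannot set chaperones apart. The mean of HSP 90-alpha was 20.5 at 4 days and 15.4, 17 and 17.6 at 7, 11 and 36 days, and none of the 3 differences from 4 days passed an adjusted p of 0.05 (lowest 0.11). The TCP-1 alpha subunit and peptidyl-prolyl isomerase B likewise gave no difference from 4 days at an adjusted p under 0.05. The TCP-1 beta and theta subunits were lower at 36 days (-0.47, adjusted p = 0.0013, and -0.55, adjusted p = 0.0012). The mitochondrial 10 kDa heat shock protein was lower at 11 days (-0.47, adjusted p = 0.018) and at 36 days (-0.70, adjusted p = 4.52e-04). U2AF 35 kDa, fragile X-related protein 2 and 1 clone of eIF5 were lower at 36 days (-0.80, -0.73 and -0.73, adjusted p = 2.73e-06, 1.84e-05 and 2.28e-08). The other clone of eIF5 had a value in only 1 fish at 36 days and was not tested there. Of the 19 named clones called at 4 days, cyclin D2 was the one higher at 11 than at 4 days at an adjusted p under 0.05 (0.51, adjusted p = 0.0015). Ubiquitin and the Ariadne-2 homolog, lowest at 4 days with means of 8.46 and 1.75, gave no difference from 4 days at an adjusted p under 0.05.

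**Figure D5:**
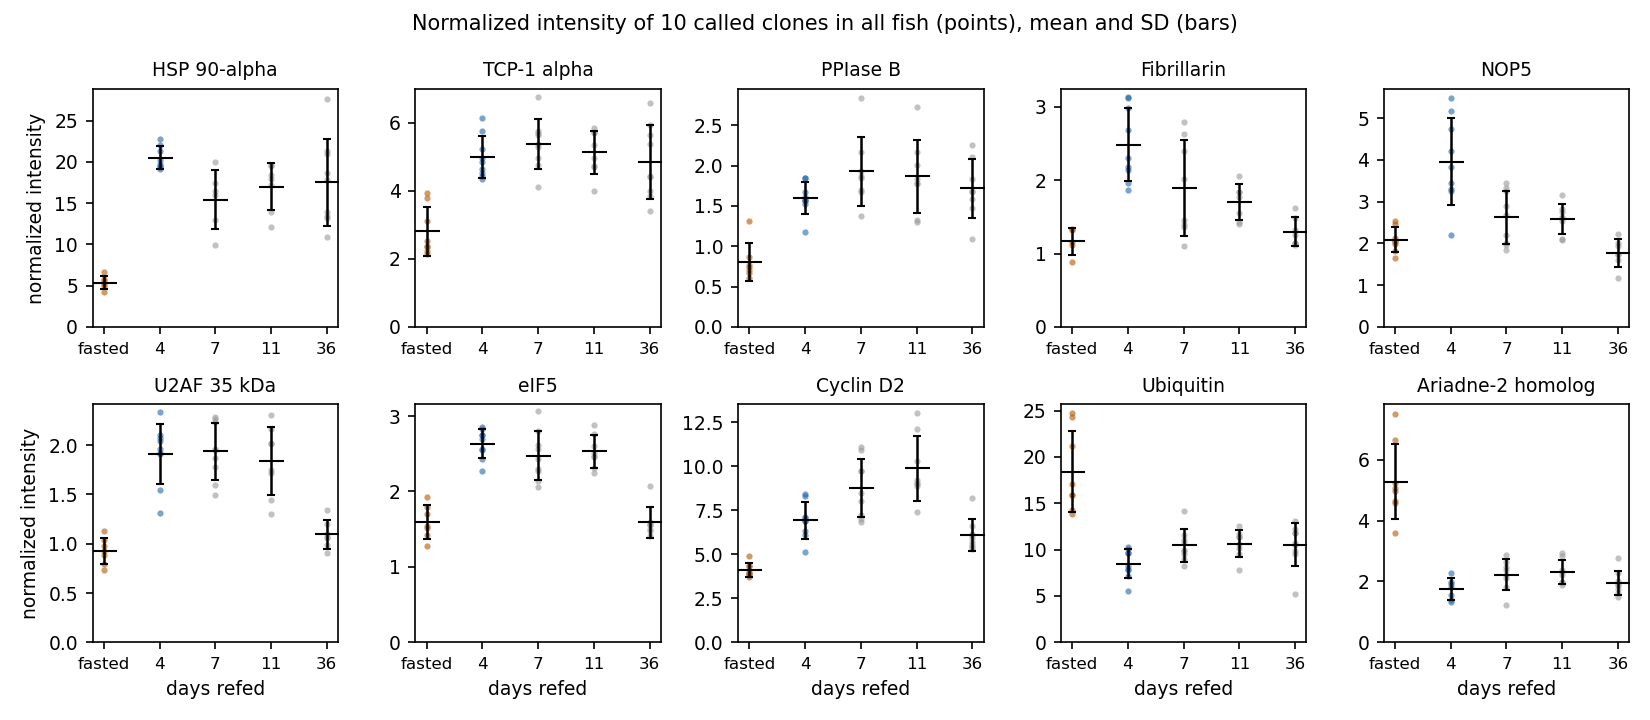
Normalized intensity (y axis) of 10 called clones in fasted fish and after 4, 7, 11 and 36 days of refeeding (x axis, not to scale), each point a fish and the bars the mean ± SD. The means of NOP5, fibrillarin, HSP 90-alpha and eIF5 (clone tcay0002.a.04) are highest at 4 days, but not every difference from a later time passed 0.05. Ubiquitin and the Ariadne-2 homolog stay below the fasted level (means of 18.4 and 5.28) at every refed time.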

How the data were processed

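For each fish, 33P-labelled cDNA made from its muscle RNA was hybridised to a nylon array of trout cDNA clones. The authors excluded spots whose signal with a vector oligonucleotide was under 3 times background, divided each signal by the oligonucleotide signal and by the median of its array, and deposited these values as a linear normalized intensity, which carries no counts or depth. Control rows (193), empty cells and cells listed at 0 (4002 in the 17 fish) were left out. Columns of no sample numbered 0. Values were taken to log2 and fitted with limma (3.58.1; statmod 1.5.0, R 4.3.3), with 1 mean per group over all 43 arrays and Benjamini-Hochberg adjustment over all 1796 clones that 5 or more fish of each group had a value for. A clone was called at an adjusted p under 0.0001. The fit was tested on simulated data. Figures and tables used Python 3.11.15, numpy 2.4.6, pandas 2.3.3 and matplotlib 3.10.9.

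Protein names came from the labels of drawings of the study and were used as annotation only. The functional groups were assigned for this comparison from the protein names. Clones named in the text were all such clones called, those under 0.05 among the largest changes, the extremes of each functional group, genes the study had singled out and the 2 largest rises and falls without a name. Others were chosen after their values were seen. The comparison, the lists and the tests were chosen with earlier results of these data known. The fish of a group were separate animals with 1 array each, and their number limits the precision. Alternatives changed the samples fitted, the scaling, the scale of the values, the weights, the filter and the test, and left out each fish in turn.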

Additional observations from a re-analysis of the deposited data

Results flagged for a closer look

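In 9 sets of fish, 7.03% of those examined, 1 fish lay far from the rest of its group by Dixon's criterion, which chance alone meets in about 1 set in 20. Peptidyl-prolyl cis-trans isomerase B was lowest in refed fish 7, at 1.17 against 1.53 in the next fish. The unnamed clone tcay0027.n.15 was highest in fasted fish 6, at 5.22 against 2.94 in the next. The TCP-1 beta subunit was highest in fasted fish 7, at 2.08 against 1.78, and splicing factor 3A subunit 2 in fasted fish 2, at 2.86 against 2.37. The DNA2-like homolog was lowest in fasted fish 5, at 1.17 against 1.38, and heterogeneous nuclear ribonucleoprotein I in refed fish 9, at 0.856 against 1.03. Ribosomal protein S19 was highest in refed fish 10, at 16.7 against 14.2, and proteasome non-ATPase regulatory subunit 13 in refed fish 2, at 2.43 against 1.29. The conjugating enzyme E2-25 kDa was highest in fasted fish 3, at 2.48 against 2.18.

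For 5 of the 18 tested named clones called at 4 days the level at 36 days differed from that at 4 days at an adjusted p under 0.0001 in limma. Among all 1778 clones tested 2.14% were lower and 1.8% higher at 36 days. The log2 differences were -0.92 for fibrillarin (adjusted p = 2.45e-05), -0.80 for the U2AF 35 kDa subunit (2.73e-06), -0.73 for fragile X-related protein 2 (1.84e-05), -1.13 for NOP5 (3.16e-07) and -0.73 for the eIF5 clone tcay0002.a.04 (2.28e-08). The 4 day fish are shared with the comparison that chose these clones.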

How the results depend on the processing

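The 52 calls (39 higher, 13 lower) became 201 (123 and 78) at an adjusted p under 0.05, 82 (64 and 18) with SAM for a 0.01% false discovery rate and 177 (125 and 52) for 5%. Quantile normalization gave 18 (13 and 5), values on a square root scale 34 (19 and 15) and clones with a value in all 17 fish, of which fewer were tested, 30 (22 and 8). The total lay between 45 and 63 with only the 17 arrays, arrays centred again, 0.1 added, array weights, the dimmest 25% left out, other minimums of fish or a trended robust fit. Leaving out each fish in turn gave 33 to 48 calls, 22 to 36 higher and 11 to 16 lower, the fewest without fasted fish 7. Without the 2 fish with the fewest values (fasted fish 4 and refed fish 2), an alternative chosen after seeing the data, there were 37 calls, 25 higher and 12 lower. The groups share fish numbers, and the labels do not say what the numbers mean. Same-numbered fish did not deviate together (r from -0.19 to 0.13 over 8 pairs, 0 of 8 best with their own number). So few pairs cannot settle whether the numbers mark a pairing. With the replicate block 6 clones were called, 3 higher and 3 lower. All 19 named calls kept their direction and an adjusted p under 0.05 with only the 17 arrays, quantile normalization, arrays centred again, 0.1 added, array weights and the replicate block, but 16 passed 0.0001 no longer with the replicate block (HSP 90-alpha, fibrillarin and ubiquitin did), 2 with only the 17 arrays (NOP5 and DNA2), 1 with arrays centred again (TCP-1 theta) and 9 under quantile normalization (fibrillarin, 10 kDa heat shock protein, cyclin D2, eIF5 clone tcay0002.a.04, TCP-1 theta and beta, splicing factor 3A subunit 2, eIF2 subunit 1 and DNA2). Reversals touched clones that had not been called: the galactosyltransferase ranged from -0.0022 (without fasted fish 7) to 0.19 with a fish left out, regulatory subunit 13 from -0.025 (without refed fish 2) to 0.25 and troponin C clone 1RT73O02_C_H01 from -0.086 to 0.0061 (without fasted fish 5), and trafficking subunit 6B stood at 0.14 under quantile normalization. The cause was not tested.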
